A study of Mus musculus with 3 samples.

Results

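Spp1, Gpnmb, Trem2, Fabp5, Lgals3, Cd9, Itgax and Ctsd are 8 of the 32285 genes counted in single cells of the mouse aorta. They were selected on their UMI counts, which were far higher in macrophages of the APOE2 library, or as known genes of foam cells, and all 8 symbols were found in the gene tables. The 3 groups were male mice on a C57BL/6J background in which human APOE2, APOE3 or APOE4 replaced the mouse Apoe gene, and every group was fed a Western diet with 42% of its energy as fat and 0.2% cholesterol for 16 weeks from 12 weeks of age. Whole aortas were pooled by genotype before cells were captured (6 animals for APOE2, 5 for APOE3, 7 for APOE4), so each genotype was 1 library without a replicate, and no animal can be recovered from its cells. No difference between genotypes could therefore be tested. Every interval below is an exact 95% interval that covers counting error only and not the spread between mice.

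Macrophages that take up lipoproteins and store their cholesterol become foam cells, the defining cells of an atherosclerotic plaque. In many tissues, macrophages loaded with lipid share a transcript programme that includes the lipid-sensing receptor Trem2, the secreted phosphoprotein Spp1 (osteopontin) and the membrane glycoprotein Gpnmb, together with genes of lipid transport and of the lysosome. Some of these genes are not specific to macrophages: osteopontin is also made by smooth muscle cells that leave the contractile state, and the tetraspanin Cd9 is present on most cells of the vessel wall.

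The genes lie on 6 chromosomes of GRCm38 in the GENCODE annotation. Spp1 is at chr5:104435118-104441050, Gpnmb at chr6:49036546-49070929, Trem2 at chr17:48346401-48354147, Fabp5 at chr3:10012548-10016607, Lgals3 at chr14:47367751-47386160 and Itgax at chr7:128129547-128150657, all on the forward strand. Cd9 at chr6:125460266-125494791 and Ctsd at chr7:142375911-142388038 are on the reverse strand. Promoter windows from 250 bases before to 50 bases after the start site were taken from RefSeq for GRCm38.p6, where 7 of the 8 genes matched and Fabp5 did not. The windows of the 3 genes in the name of the programme and of the lysosomal protease gene Ctsd are shown because these genes were all highest in APOE2 in the macrophages described below and 3 different motifs were found among their windows. They are chr5:104434861-104435160, chr6:49036268-49036567 and chr17:48346151-48346450 on the forward strand and chr7:142387778-142388077 on the reverse strand, and capitals mark the motif matches.
Spp1: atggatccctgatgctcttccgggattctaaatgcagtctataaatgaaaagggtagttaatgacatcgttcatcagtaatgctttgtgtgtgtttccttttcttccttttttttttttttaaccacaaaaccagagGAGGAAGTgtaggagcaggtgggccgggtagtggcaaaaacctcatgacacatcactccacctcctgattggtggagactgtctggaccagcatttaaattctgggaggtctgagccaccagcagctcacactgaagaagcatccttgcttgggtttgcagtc
Gpnmb: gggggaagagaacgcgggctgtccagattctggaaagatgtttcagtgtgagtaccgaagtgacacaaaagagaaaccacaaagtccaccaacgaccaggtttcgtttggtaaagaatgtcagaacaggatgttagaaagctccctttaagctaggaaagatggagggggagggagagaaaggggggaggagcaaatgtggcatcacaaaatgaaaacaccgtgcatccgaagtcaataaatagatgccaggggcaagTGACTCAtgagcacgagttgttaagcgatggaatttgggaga
Trem2: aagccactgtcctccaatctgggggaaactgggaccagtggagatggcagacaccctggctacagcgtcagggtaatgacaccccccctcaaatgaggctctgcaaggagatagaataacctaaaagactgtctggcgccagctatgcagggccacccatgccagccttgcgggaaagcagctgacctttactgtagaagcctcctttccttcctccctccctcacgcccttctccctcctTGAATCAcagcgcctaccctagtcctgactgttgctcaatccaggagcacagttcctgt
Ctsd: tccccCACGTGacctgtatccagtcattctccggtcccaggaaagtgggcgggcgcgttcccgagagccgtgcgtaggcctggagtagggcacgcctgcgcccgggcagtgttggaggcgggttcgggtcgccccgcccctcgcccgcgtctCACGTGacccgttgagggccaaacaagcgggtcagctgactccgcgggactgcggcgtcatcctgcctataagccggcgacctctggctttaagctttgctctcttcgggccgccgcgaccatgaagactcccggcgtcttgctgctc
A set of 4 short letter patterns was searched on both strands of all 32851 promoter windows. The AP-1 pattern TGANTCA, held by 7.81% of all windows, was found in Gpnmb (8 bases after the start site), in Trem2 (9 bases before it) and in Itgax (56 bases before it). The pattern CACGTG, the core of the element bound by lysosomal regulators of the MiT/TFE family, was held by 7.15% of windows and occurred at 2 places in Ctsd, 245 and 98 bases before the start. The PU.1 pattern GAGGAAGT, held by 3.20% of windows, was found 113 bases before the upstream start site of Spp1. The M-box pattern TCATGTG, held by 3.77% of windows, was in none of the members' windows, and no pattern was found in those of Lgals3, Cd9 or the downstream start site of Spp1. A match of letters is a description and was not tested as a binding site.

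Cells were kept from 200 detected genes upwards and below 20% mitochondrial UMIs, which left 11772 APOE2, 6737 APOE3 and 8248 APOE4 cells with 168310501, 125105151 and 124926887 UMIs. Median depth was 12047, 17618 and 13521.5 UMIs per cell. Between 23 and 30 cell barcodes were shared by each pair of libraries and 0 by all 3. Cells were clustered with the 8 genes left out, so that no cell type rested on them. Of the clusters, 1 could be named macrophage-like (macrophages in the text) and held 336 APOE2, 92 APOE3 and 125 APOE4 cells, which were 2.85%, 1.37% and 1.52% of their libraries. All 10 macrophage markers were above 0 in each library, and their summed level was 26189.5, 22707 and 17486 UMIs in every 1000000 of those cells (CPM). Median depth of these macrophages was similar in the 3 libraries, at 9623, 9290.5 and 9547 UMIs. RNA of other cells was present too. The 10 smooth muscle markers summed to 5482, 10087 and 9641 CPM in the macrophages of APOE2, APOE3 and APOE4, and 6 erythroid markers to 1922, 9.64 and 72.1 CPM. Of the macrophages, 34 APOE2, 10 APOE3 and 14 APOE4 cells had 100 or more smooth muscle-marker UMIs. Leaving them out was an alternative, and the Cd9 levels without them are given below. The part of the erythroid RNA in the results was not tested. A second cluster, of 148, 38 and 59 cells, also raised 9 macrophage markers but kept all 10 smooth muscle markers. It stayed unnamed for its very low depth, and Ppbp, Ctla2a and Gp9 were among its leading genes. It is counted with the smooth muscle-marker clusters, and Trem2 was at 104.3, 63.8 and 39.3 CPM in it, from 47, 15 and 10 UMIs.

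Spp1 encodes a secreted ligand of integrins and Cd44. APOE2 macrophages held 12514 UMIs of it, a level of 3059.7 CPM (95% interval 3006 to 3114), whereas APOE3 macrophages held 11 UMIs or 10.6 CPM (5.30 to 19.0) and APOE4 macrophages 16 UMIs or 11.2 CPM (6.40 to 18.2). The APOE2 library stood alone, and the other 2 libraries had intervals that overlapped. APOE2 exceeded APOE3 by 8.17 on the log2 scale (7.33 to 9.17), and the log2 ratio of APOE4 to APOE3 came to 0.08 (-1.12 to 1.33). These values, like all macrophage levels of APOE2 below, belong to the pattern for which the genes were listed and are given as a description.

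Trem2 is the receptor of the programme and signals through the adaptor Tyrobp. Its levels were 441.6 CPM (421 to 462), 274.8 CPM (244 to 309) and 177.1 CPM (156 to 200) in APOE2, APOE3 and APOE4 macrophages. Unlike Spp1, it was well counted in all 3 libraries, with 1806, 285 and 253 UMIs, and no interval overlapped another. The log2 ratio was 0.68 (0.50 to 0.87) for APOE2 to APOE3 and -0.63 (-0.88 to -0.38) for APOE4 to APOE3. Gpnmb, a glycoprotein of endosomal and lysosomal membranes, was counted at 379.96 CPM (361 to 399) in APOE2 macrophages with 1554 UMIs. In APOE3 and APOE4 macrophages it had 1 UMI each, or 0.964 CPM (0.0244 to 5.37) and 0.700 CPM (0.0177 to 3.90). Its log2 ratio between APOE2 and APOE3, 8.62, had a wide interval of 6.14 to 13.93, since it rests on that 1 UMI. Gpnmb therefore split the libraries as Spp1 did, and Trem2 differed by far less.

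Cd9 and Itgax are surface molecules, a tetraspanin and the integrin chain also known as CD11c. APOE2, APOE3 and APOE4 macrophages had Cd9 levels of 513.0 CPM (491 to 535), 351.0 CPM (316 to 389) and 394.8 CPM (363 to 429), a log2 ratio of 0.55 (0.39 to 0.71) for APOE2 to APOE3. Itgax was low throughout, at 40.8 CPM (34.9 to 47.5), 20.3 CPM (12.5 to 31.0) and 14.0 CPM (8.55 to 21.6) from 167, 21 and 20 UMIs. Between APOE2 and APOE3 the log2 ratio came to 1.01 (0.35 to 1.74). Over all macrophages, the APOE3 and APOE4 intervals of both genes overlapped.

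Fabp5 binds fatty acids in the cytosol, Lgals3 encodes galectin-3, a lectin made in large amounts by activated macrophages, and Ctsd encodes cathepsin D, an aspartyl protease of the lysosome. For Fabp5, the APOE2, APOE3 and APOE4 macrophages gave 3353, 18 and 23 UMIs, or 819.8 CPM (792 to 848), 17.4 CPM (10.3 to 27.4) and 16.1 CPM (10.2 to 24.2). The excess of APOE2 over APOE3 was 5.56 on the log2 scale (4.90 to 6.32), so that Fabp5 joined Spp1 and Gpnmb in being almost uncounted outside APOE2. Lgals3 was at 2032 CPM (1989 to 2077), 559.3 CPM (515 to 607) and 342.3 CPM (313 to 374), with log2 ratios of 1.86 (1.74 to 1.99) for APOE2 to APOE3 and -0.71 (-0.89 to -0.53) for APOE4 to APOE3. The second of these turned to 0.16 when the highest cell of each library was left out. Ctsd was at 1746 CPM (1706 to 1787), 629.7 CPM (582 to 680) and 417.9 CPM (385 to 453), with log2 ratios of 1.47 (1.36 to 1.59) and -0.59 (-0.75 to -0.43). Lgals3 and Ctsd thus had the same order of libraries as Trem2, APOE2 above APOE3 above APOE4, with no overlap of intervals.

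**Figure D1:**
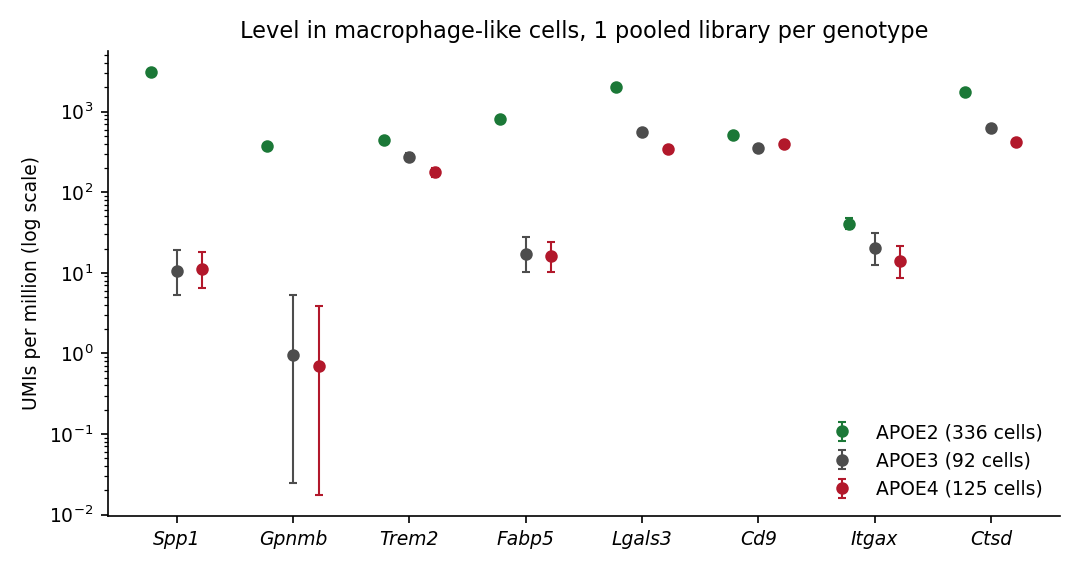
Level of each of the 8 genes in macrophages of the APOE2, APOE3 and APOE4 libraries, in CPM on a log axis; points are UMIs summed over the macrophages of 1 library and bars are exact Poisson 95% intervals, which cover counting error only. Spp1, Gpnmb and Fabp5 were more than 10-fold lower in both other libraries than in APOE2, whereas Trem2 and Cd9 differed by less than 3-fold between any pair.

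Counted together, 6 of the 8 genes were at least 2-fold higher in APOE2 than in APOE3 macrophages, where 3.77% of the 8478 genes with 50 or more UMIs in both libraries together passed that fold, and all 8 intervals lay above 0. Since the genes were listed for this contrast, nothing is read from the count, and Spp1, Gpnmb, Fabp5 and Itgax reached 50 UMIs only through the APOE2 library. The median log2 ratio was 1.67 over the 8 genes and -0.01 over all genes tested. Just inside the 2-fold line was Itgax at 1.01 and just outside it were Trem2 at 0.68 and Cd9 at 0.55. Without macrophages of 100 or more smooth muscle-marker UMIs, Cd9 passed the line at 1.4 and Itgax fell short of it at 0.77. Ranked among the 8478 genes, Spp1 was at place 3, Gpnmb at 4, Fabp5 at 13, Lgals3 at 97, Ctsd at 153, Itgax at 327, Trem2 at 668 and Cd9 at 979. Against APOE4, 7 of the 8 genes were at least 2-fold higher in APOE2, all but Cd9, with 2.66% of 8752 genes past that fold, and 0 were 2-fold lower, where 4.19% were. This contrast also rests on the APOE2 level for which the genes were listed, so nothing is read from its count. Again Spp1, Gpnmb, Fabp5 and Itgax reached 50 UMIs only through APOE2. For APOE4 to APOE3, a contrast not named in the choice of the genes, 0 of 8 were 2-fold higher, where 3.66% of 6257 genes were, and 0 of 8 were 2-fold lower, where 1.41% were. Their median log2 ratio was -0.50 against 0.01 over all genes, and the intervals of Trem2, Lgals3 and Ctsd lay below 0. Only Trem2, Lgals3, Cd9 and Ctsd had 50 or more UMIs in those 2 libraries. For the same contrast, the 9 resident macrophage genes read below had a median of -0.51, with 8 intervals below 0. Other genes of lipid-associated macrophages had -0.35, with 7 of 12 intervals below 0 and 1 above. The 9 receptors of Spp1 and Gpnmb had 0.35, with 2 intervals below 0 and 6 above.

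The levels of APOE2 macrophages were carried by few cells. The 34 cells with the most Spp1 UMIs, 1 in 10 of the class, held 98.6% of its Spp1 UMIs. The 34 highest cells of each gene held 100% of Gpnmb, 99.4% of Fabp5, 89.2% of Itgax and 84.3% of Lgals3 UMIs. Cells were ranked by UMIs without regard to depth, so deep cells could rank high by their depth. Trem2 was spread more widely, with 58.5% in its top 34 cells, as were Cd9 with 60.9% and Ctsd with 73.8%. In the median APOE2 macrophage Spp1, Gpnmb, Fabp5 and Itgax were at 0 UMIs, whereas Trem2 was at 212 CPM and Ctsd at 425.6 CPM. The cell with the most Spp1 held 2676 of its own 41401 UMIs as Spp1, or 6.46%. Without that cell the APOE2 level of Spp1 was 2430 CPM (2382 to 2479), and without the 10 highest cells it was 544.4 CPM (521 to 568). A single cell of 53451 UMIs was the highest for Gpnmb (339 UMIs), Trem2 (97), Fabp5 (653), Itgax (14) and Ctsd (841).

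The few UMIs of the APOE3 library were just as concentrated. Of its 92 macrophages, 1 cell with 28583 UMIs was the highest for Spp1 with 9 of 11 UMIs, for Fabp5 with 16 of 18, for Lgals3 with 298 of 580 and for Itgax with 9 of 21. When the highest cell of each gene was left out, the APOE3 levels were 1.98 CPM for Spp1, 1.98 CPM for Fabp5, 279.7 CPM for Lgals3 and 11.9 CPM for Itgax, the cell that set the order of APOE3 and APOE4 for Lgals3. In APOE4 the highest Spp1 cell held 6 of 16 UMIs and the highest Fabp5 cell 7 of 23.

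To compare the share of cells in which a gene was seen, each cell was thinned at random to 1000 UMIs, which left out 1 APOE4 macrophage below that depth. Spp1 was then seen in 12.8% (9.42 to 16.8) of 336 APOE2 macrophages and in 0 of 92 APOE3 and 0 of 124 APOE4 macrophages, counts of 0 that, taken as at most 3 cells, allow shares of cells with a UMI at this depth of up to 3.26% and 2.42%. Without thinning, Spp1 had a UMI in 91, 2 and 9 macrophages. Gpnmb was seen in 4.46% (2.52 to 7.26) of APOE2 and in 0 of the APOE3 and APOE4 cells. The background in smooth muscle-like cells, with median depths of 13992, 20624 and 15772 UMIs, was 0.449%, 0.0599% and 0% for Spp1 and 0.337%, 0.210% and 0.0431% for Gpnmb. In T lymphocyte-like cells, at median depths of 4100, 4135 and 6057 UMIs, Spp1 was seen in 2.16% of 185, 0% of 39 and 1.85% of 108 cells. The APOE2 macrophage share of Spp1, for which the gene was listed, was thus above these 2 backgrounds, and the APOE3 and APOE4 shares were not. Left out of the smooth muscle-like background is the unnamed cluster rich in Spp1 described below, where a larger share of APOE2 cells showed it. The T lymphocyte-like cluster also raised the macrophage markers Adgre1, Csf1r, Mrc1 and Cx3cr1.

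Trem2 was seen in 27.1% (22.4 to 32.2) of APOE2, 17.4% (10.3 to 26.7) of APOE3 and 18.5% (12.1 to 26.5) of APOE4 macrophages, with intervals that overlapped, against at most 0.0216% of smooth muscle-like cells. Lgals3 was seen in 27.7% (23.0 to 32.8), 12.0% (6.12 to 20.4) and 17.7% (11.5 to 25.6) of the cells. Fabp5 was seen in 5.36%, 1.09% and 1.61% of macrophages and in 2.42%, 1.20% and 1.94% of smooth muscle-like cells, so that the APOE3 and APOE4 shares of Fabp5 were at or below that background. Shares for Ctsd were 44.9%, 34.8% and 30.6%, for Cd9 24.4%, 14.1% and 19.4%, and for Itgax 3.27%, 2.17% and 3.23%. The Cd9 shares lay below the 63.8% to 73.1% of smooth muscle-like cells, where Cd9 is a common transcript.

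Single APOE2 macrophages carried several of the genes at once. At 1000 UMIs, 25 of 336 APOE2 macrophages, or 7.44% (4.87 to 10.8), showed 5 or more of the 8 genes, as did 1 of 92 APOE3 macrophages and 1 of 124 APOE4 macrophages, or 1.09% (0.0275 to 5.91) and 0.806% (0.0204 to 4.41). No gene of the set was seen in 104 APOE2, 40 APOE3 and 44 APOE4 macrophages. The median macrophage showed 1 gene in each library.

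**Figure D2:**
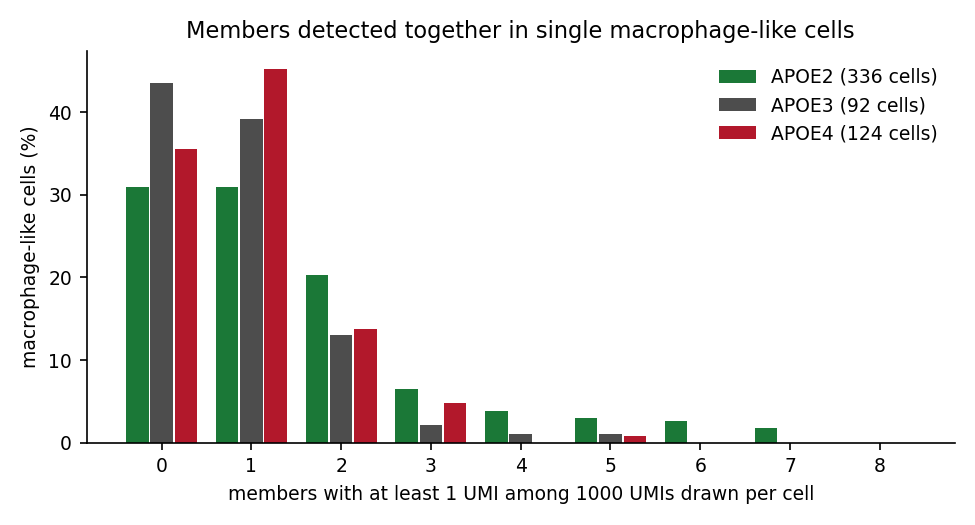
Share of macrophages, in percent, that showed 0 to 8 of the 8 genes after thinning to 1000 UMIs, by library. Cells with 6 or 7 of the genes were seen only among the 336 APOE2 macrophages, and the largest share of APOE4 cells showed 1 gene.

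Among the 43 APOE2 macrophages with Spp1 at this depth, Gpnmb was seen in 27.9% (15.3 to 43.7), against 1.02% (0.212 to 2.96) of the 293 without Spp1. Fabp5 was seen in 37.2% (23.0 to 53.3) and 0.683% (0.0828 to 2.44), Lgals3 in 76.7% (61.4 to 88.2) and 20.5% (16.0 to 25.6), and Trem2 in 58.1% (42.1 to 73.0) and 22.5% (17.9 to 27.7). Itgax, in contrast, was seen in 3 of the 43 cells and in 8 of the 293, with overlapping intervals. All 15 cells with Gpnmb also showed Lgals3 and Ctsd, 12 of them showed Spp1, 12 Trem2 and 11 Fabp5, and 0 showed Itgax. These cells come from 1 library and share its depth and free RNA, so the co-occurrence is a description. Over 333 APOE2 macrophages thinned to 2000 UMIs, the Spearman correlation of Gpnmb with Fabp5 was 0.70, that of Spp1 with Lgals3 was 0.48, that of Spp1 with Fabp5 was 0.44 and that of Trem2 with Ctsd was 0.38.

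Genes most like Spp1 by their mean correlation over the macrophages of the 3 libraries were Il7r, Fabp5, Il1rn, Dynlt1f and Got2, with mean correlations from 0.38 to 0.35, but only 59 APOE2, 2 APOE3 and 1 APOE4 cells showed Spp1 at that depth. For Trem2 they were Syngr1, Lyz2, Cd63, Ctsb and Akr1b8, with mean correlations from 0.24 to 0.20 over 123, 36 and 32 cells with Trem2. Gpnmb had no such ranking because 0 APOE3 and 0 APOE4 macrophages showed it. Across 8 cell types in 3 libraries, 24 points that share their libraries, Gpnmb was most like Mlkl (Pearson correlation 0.84), Gm10605 (0.79) and Mmp19 (0.79).

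Macrophages resident in the vessel wall are marked by genes such as Lyve1, Timd4 and Maf, and all 8 foam genes were lower in APOE2 cells with many such transcripts than in cells with few. In the 20 APOE2 macrophages with 0 UMIs on 9 resident genes, Spp1 was at 17475 CPM (16928 to 18036), Lgals3 at 5526 CPM (5220 to 5845), Gpnmb at 652.8 CPM (551 to 769) and Trem2 at 593.8 CPM (497 to 705). In the 87 cells with 1 to 9 such UMIs, Spp1 was at 4819 CPM (4688 to 4953) and Lgals3 at 4404 CPM (4279 to 4532), but Gpnmb was higher than in the first class at 975.6 CPM (917 to 1037), and Trem2 stood at 701.3 CPM (652 to 753). In the 229 cells with 10 or more, Spp1 was at 1254 CPM (1213 to 1296), Gpnmb at 131.4 CPM (118 to 146) and Trem2 at 330.6 CPM (310 to 353). Median depth of the 3 classes of cells lay between 8888 and 9971.5 UMIs. Cells at 0 resident UMIs were 5.95% (3.67 to 9.04) of APOE2, 1.09% (0.0275 to 5.91) of APOE3 and 5.60% (2.28 to 11.2) of APOE4 macrophages, and those at 1 to 9 were 25.9% (21.3 to 30.9), 16.3% (9.42 to 25.5) and 17.6% (11.4 to 25.4), with intervals that overlapped. In APOE3 cells with 1 to 9 resident UMIs, Lgals3 was at 2391 CPM (2161 to 2638) against 204.1 CPM (175 to 237) with 10 or more, of which 298 of 397 UMIs came from the 1 cell named above. Other genes went the other way there, with Trem2 at 210.8 against 289.9 CPM and Cd9 at 252.9 against 372.2 CPM. In APOE4, Trem2 was at 124.5 against 184.0 CPM and Ctsd at 264.6 against 450.3 CPM. Of these 4 pairs only Ctsd had intervals that did not overlap. Lgals3, Cd9 and Itgax of APOE4 were lower with 10 or more.

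Macrophages were not the main source of Spp1 in the APOE2 aorta. Of 97095 Spp1 UMIs in that library, 12.9% were in macrophages, 5.17% in fibroblast-like cells and 81.3% in clusters that kept smooth muscle markers. Of the rest of the set, Trem2 and Itgax were mostly macrophage transcripts in every library, with 80.2%, 81.0% and 92.3% of Trem2 UMIs and 78.4%, 72.4% and 64.5% of Itgax UMIs in macrophages of APOE2, APOE3 and APOE4. For Gpnmb the macrophage share was 45.5% in APOE2 but 0.130% and 0.149% in APOE3 and APOE4, where fibroblast-like cells held 62.2% and 74.9% of it. For Fabp5 the macrophage share was 42.2%, 0.799% and 0.970%, and for Lgals3 it was 43.4%, 12.5% and 12.6%. Smooth muscle-marker clusters held at least 90.8% of Cd9 and 79.4% of Ctsd UMIs in every library. The name foam macrophage genes thus covered the bulk of the transcripts for Trem2 and Itgax, and for the other 6 genes most transcripts lay outside macrophages.

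A single cluster held 77.8% of all Spp1 UMIs of the APOE2 library. It was picked because its Spp1 level over all libraries was the highest of the clusters that kept smooth muscle markers. It comprised 466 APOE2, 263 APOE3 and 323 APOE4 cells, or 3.96%, 3.90% and 3.92% of the libraries, and is called the Spp1-rich cluster here. At this resolution it kept all 10 smooth muscle markers, at a summed 24474, 39009 and 38820 CPM, but the fibroblast marker Lum was among its leading genes, so that it was given no cell type name. The clusters led by Spp1 at resolution 0.4 (588 cells) and without integration (461 cells) kept 1 and 2 of the 10 markers. Macrophage markers of the Spp1-rich cluster summed to 17.7, 15.3 and 32.7 CPM, against 18.3, 12.0 and 20.4 CPM in smooth muscle-like cells. The intervals of APOE3 (12.6 to 18.4) and APOE4 (28.6 to 37.3) lay above those smooth muscle-like values. Fibroblast markers of the cluster summed to 5688, 947 and 825 CPM, against 378, 413 and 353 CPM in smooth muscle-like cells. In smooth muscle-like cells the smooth muscle markers summed to 49630, 57323 and 53332 CPM, above the cluster in each library. Spp1 was at 6093 CPM (6049 to 6136), 69.8 CPM (63.8 to 76.1) and 29.9 CPM (26.0 to 34.2) in the APOE2, APOE3 and APOE4 cells of the cluster, from 75514, 502 and 209 UMIs. On the log2 scale APOE2 exceeded APOE3 by 6.45 (6.32 to 6.58), and the APOE4 to APOE3 ratio was -1.22 (-1.46 to -0.99), so no library overlapped another.

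Here too a handful of cells carried the level. A single APOE2 cell held 19410 Spp1 UMIs of its 94521, or 20.5% of its own transcripts and 25.7% of the cluster's Spp1. Without it the level was 4561 CPM (4524 to 4599), and without the 10 highest cells it was 1452 CPM. In APOE3 the level fell from 69.8 to 39.1 CPM without 1 cell of 222 Spp1 UMIs and to 3.81 CPM without 10, and in APOE4 it fell to 19.5 and 6.14 CPM. Spp1 had a UMI in 151 of 466, 26 of 263 and 26 of 323 cells, and at 1000 UMIs it was seen in 18.0% (14.6 to 21.8), 1.90% (0.620 to 4.38) and 1.55% (0.505 to 3.58) of them.

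**Figure D3:**
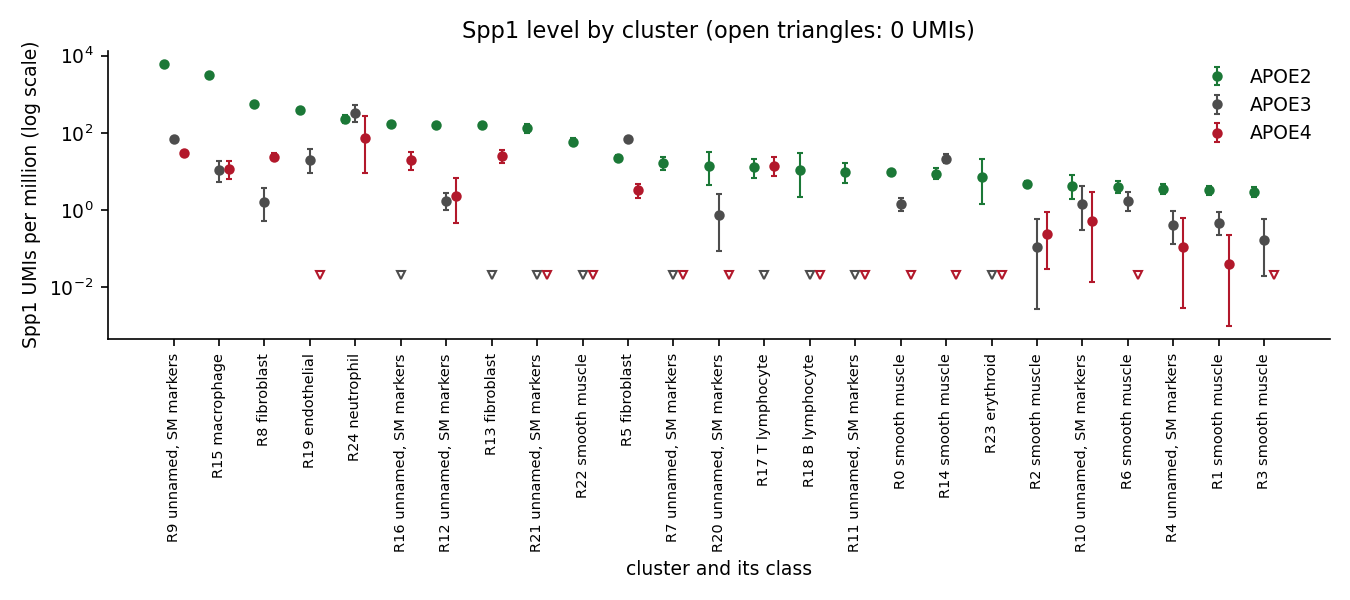
Spp1 level in each cluster by library, in CPM on a log axis, with exact Poisson 95% intervals; open triangles mark clusters without a UMI, and SM markers are smooth muscle markers. The Spp1-rich cluster reached 6093 CPM and the macrophage cluster 3059.7 CPM in APOE2, and both were below 100 CPM in APOE3 and APOE4.

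Trem2 and Itgax were low in the Spp1-rich cluster, whereas Cd9 lay above its macrophage level in each library. Lgals3 was at 356.9 CPM (346 to 368), 157.6 CPM (149 to 167) and 119.1 CPM (111 to 127), a log2 ratio of 1.18 (1.08 to 1.27) for APOE2 to APOE3. Gpnmb was at 16.5, 10.4 and 7.58 CPM. In APOE2 this was below its macrophage level. In APOE3 and APOE4 it was above the macrophage levels of 0.964 and 0.7 CPM, which rest on 1 UMI each. Trem2 was at 3.39, 0.834 and 0.715 CPM from 42, 6 and 5 UMIs. Itgax had 0 UMIs in every library, which allows up to 0.242, 0.417 and 0.429 CPM. Fabp5 lay between 17.1 and 21.6 CPM, Cd9 between 1252 and 1414 CPM and Ctsd between 382.5 and 507.0 CPM, with APOE3 highest for Cd9 and Ctsd. For APOE2 to APOE3, 3 of 8 genes were at least 2-fold higher and 0 lower in this cluster, where 4.71% and 1.71% of 11388 genes were. The higher genes were Spp1, Lgals3 and Trem2. The cluster was picked on its Spp1 level, which came mostly from APOE2 cells. Trem2, with 42 and 6 UMIs, was under the UMI minimum that the 11388 genes had to reach. Nothing is therefore read from the count. Of 10 genes of modulated smooth muscle cells, 4 were 2-fold higher and 0 lower, with Lum at 1955, 60.9 and 51.7 CPM and Timp1 at 2042, 294.6 and 282.4 CPM, and the list's median log2 ratio was 0.54 against -0.00 over all genes.

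Cells with 10 or more Spp1 UMIs fell into several kinds. The libraries of APOE2, APOE3 and APOE4 held 234, 16 and 10 of these. Of the APOE2 cells, 95 were in the Spp1-rich cluster, with a median of 296 smooth muscle-marker UMIs and 0 macrophage-marker UMIs, and 38 were macrophages, with a median of 5 smooth muscle-marker and 315 macrophage-marker UMIs. Median depth was 33519 UMIs in the 95 cells and 19105.5 UMIs in the 38, so these marker counts are not levels. In the 38 macrophages Gpnmb was at 1530 CPM, Trem2 at 1101 CPM and Fabp5 at 3560 CPM, whereas in the 95 cells of the Spp1-rich cluster these genes were at 17.8, 9.18 and 16.4 CPM. A further 76 were in other unnamed clusters with smooth muscle markers, at a median depth of 68789 UMIs, and held 1.88% of the library's Spp1. Their medians were 3578 smooth muscle-marker and 26.5 macrophage-marker UMIs, and 64 of the 76 had 3 or more of the latter, so that most carried both marker sets.

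Smooth muscle-like cells, the 6236 APOE2, 3340 APOE3 and 4642 APOE4 cells of clusters that could be named at the resolution used, held little Spp1. It was at 6.25 CPM (5.76 to 6.76), 1.45 CPM (1.20 to 1.75) and 0.0353 CPM (0.00729 to 0.103) from 611, 110 and 3 UMIs, and the log2 ratio was 2.10 (1.81 to 2.41) for APOE2 to APOE3. In the APOE3 cells 49 of the 110 UMIs came from 1 cell, without which the level was 0.807 CPM. The low level depended on the resolution: at 1.6 the cluster led by Chad and Spp1 was itself named smooth muscle-like, and the ratio of APOE2 to APOE3 became 6.31 on the log2 scale. Over all smooth muscle-marker clusters, named or not, APOE2 was at 546.6 CPM. The 3 UMIs of APOE4 gave a log2 ratio to APOE3 of -5.36 (-7.66 to -3.78). In barcodes removed by the cell filter, Spp1 had 100 UMIs, or 133.7 CPM (109 to 163), in APOE2 and 0 in APOE3 and APOE4, so barcodes not kept as cells carried Spp1 in APOE2, and their part in the low smooth muscle level was not tested.

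Cd9 and Ctsd, both abundant in smooth muscle, were lower in APOE2 than in APOE3 there, the reverse of macrophages. Cd9 was at 1073 CPM (1067 to 1080), 1319 CPM (1311 to 1328) and 1202 CPM (1195 to 1210), and Ctsd at 360.2 CPM (356 to 364), 469.6 CPM (465 to 475) and 335.3 CPM (331 to 339). Their log2 ratios of APOE2 to APOE3 were -0.30 (-0.31 to -0.29) and -0.38 (-0.40 to -0.36), and those of APOE4 to APOE3 were -0.13 and -0.49. Gpnmb was at 2.15, 1.30 and 1.01 CPM, Lgals3 at 33.4, 26.7 and 24.4 CPM and Fabp5 at 21.4, 16.5 and 16.8 CPM. Trem2 and Itgax had at most 16 and 5 UMIs in a library. Of the 8 genes, 2 were at least 2-fold higher and 1 at least 2-fold lower in APOE2 than in APOE3, where 3.06% and 0.856% of 14491 genes were, but of these only Spp1 had 50 UMIs, the others being Trem2 and Itgax. For APOE4 to APOE3, 0 were higher and 2 lower, Spp1 and Itgax, beside 2.93% and 0.76% of 14346 genes, and Itgax again had fewer than 50 UMIs. The median log2 ratio of the set was 0.35 for APOE2 to APOE3 and -0.42 for APOE4 to APOE3, against 0.04 and -0.08 over all genes.

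**Figure D4:**
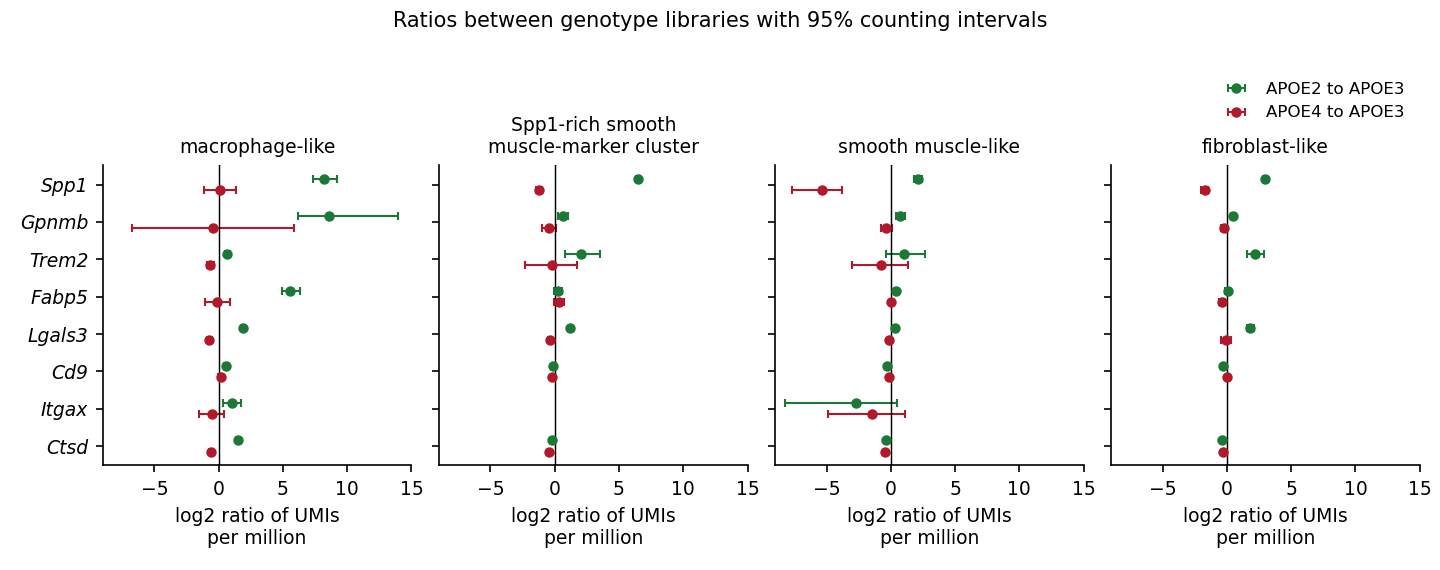
Log2 ratio of APOE2 to APOE3 and of APOE4 to APOE3 for the 8 genes in macrophages, smooth muscle-like cells, the Spp1-rich cluster and fibroblast-like cells, with exact conditional 95% intervals; genes with 0 UMIs in a library have no point. Cd9 and Ctsd lay above 0 in macrophages and below 0 in the other 3 cell classes for APOE2 to APOE3.

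Position along the aorta was read from 2 marker sets, Hand2 for the arch and 6 Hox genes for the descending aorta, and cells with a UMI of both were left out. Among smooth muscle-like cells, Gpnmb was at 2.17 CPM in Hand2 cells and 0.816 CPM in Hox cells of APOE2, at 1.69 and 0.357 CPM in APOE3 and at 1.20 and 0.308 CPM in APOE4. The log2 ratio was 1.41 (0.55 to 2.40), 2.24 (1.09 to 3.63) and 1.96 (0.84 to 3.19), so Gpnmb was higher in Hand2 cells of all 3 libraries. Cd9 was lower in Hand2 cells of each library, with log2 ratios of -0.32, -0.30 and -0.18. The 3 libraries differed in how many such cells they held, with 3031, 1165 and 985 Hand2 cells and 1013, 900 and 1783 Hox cells. These counts were not adjusted for depth, with medians of 15338, 22346 and 17613 UMIs in Hand2 cells and 13101, 19835.5 and 15622 in Hox cells. They also leave out unnamed clusters, among them 1 led by Rgs5, Hoxa7 and Sema3a with 713, 597 and 515 cells.

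Fibroblast-like cells, 1397 in APOE2, 839 in APOE3 and 1191 in APOE4, were the steady source of Gpnmb. It was at 66.7 CPM (62.7 to 70.7), 49.0 CPM (44.7 to 53.6) and 41.6 CPM (38.0 to 45.4), with no cell above 13 UMIs, and log2 ratios were 0.44 (0.29 to 0.60) for APOE2 to APOE3 and -0.24 (-0.42 to -0.05) for APOE4 to APOE3. In APOE3 and APOE4 these levels lay above those of macrophages. Spp1 was at 308.4 CPM (300.0 to 317), 38.8 CPM (35.0 to 43.0) and 11.8 CPM (9.94 to 13.9), but 1 APOE2 cell held 2857 of 5016 UMIs and 1 APOE3 cell 283 of 379. Without the highest cell of each library Spp1 was at 133.1, 9.87 and 9.51 CPM. Trem2 had 183, 24 and 0 UMIs, of which 65 in APOE2 and 14 in APOE3 were in 1 cell, and the 0 of APOE4 allows up to 0.247 CPM. Lgals3 was at 37.8, 10.7 and 9.90 CPM, a log2 ratio of 1.83 (1.53 to 2.14) for APOE2 to APOE3. Spp1, Trem2 and Lgals3 were at least 2-fold higher in APOE2 than in APOE3, 3 of 8 beside 2.02% of 12387 genes, and 0 were lower, beside 1.43%. For APOE4 to APOE3, 0 of 8 were higher and 1 lower, Spp1, beside 1.92% and 0.844% of 12086 genes, and the ratio of Trem2 had no value but an interval that reached up to -2.90. When cells were classed one by one from their own markers, the APOE4 to APOE3 ratio of Gpnmb in fibroblasts was 0.20 instead of -0.24. Macrophage markers summed to 32.3, 13.7 and 33.1 CPM in these cells, and their part in the counts of Spp1, Trem2 and Lgals3 was not tested.

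The order of cell types differed from gene to gene. Fabp5 in APOE3 and APOE4 was highest in endothelial-like cells, at 115 CPM (86.2 to 151) and 322 CPM (258 to 398), and it was at 230.2 CPM (206 to 256) in those of APOE2. In APOE4, 55 of the 86 UMIs were in 1 cell, as were 19 of 52 in APOE3, and without the highest cell of each library the levels were 217, 76.5 and 129 CPM in APOE2, APOE3 and APOE4. Neutrophil-like cells, only 55, 10 and 7 cells, had Ctsd at 1384 CPM (1258 to 1520), 1128 CPM (850 to 1468) and 1286 CPM (896 to 1789), intervals that overlapped one another, and Spp1 at 232.8 CPM (183 to 292), 328 CPM (187 to 533) and 73.5 CPM (8.90 to 265), where 1 APOE3 cell of 1600 UMIs held 15 of the 16 Spp1 UMIs. Trem2 was highest in macrophages of every library, and the next highest of the named types in APOE3 was T lymphocyte-like cells at 31.6 CPM (12.7 to 65.2) from 7 UMIs. Macrophage markers were present in those APOE3 cells, with Csf1r at 44.9% and Adgre1 at 37.1% of their macrophage level and Lyz2 seen in 52.4% of cells, and their part in the Trem2 count was not tested. T lymphocyte-like cells of APOE2 had Gpnmb at 51.2 CPM (38.8 to 66.4) from 57 UMIs in 7 cells, 77.2% of them in 2 cells, a level that overlapped that of fibroblast-like cells. Csf1r and Adgre1 were there at 18.6% and 19.6% of their macrophage level, and their part in the Gpnmb count was not tested. In endothelial-like cells of APOE2, 552 of 569 Spp1 UMIs came from 1 cell.

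**Figure D5:**
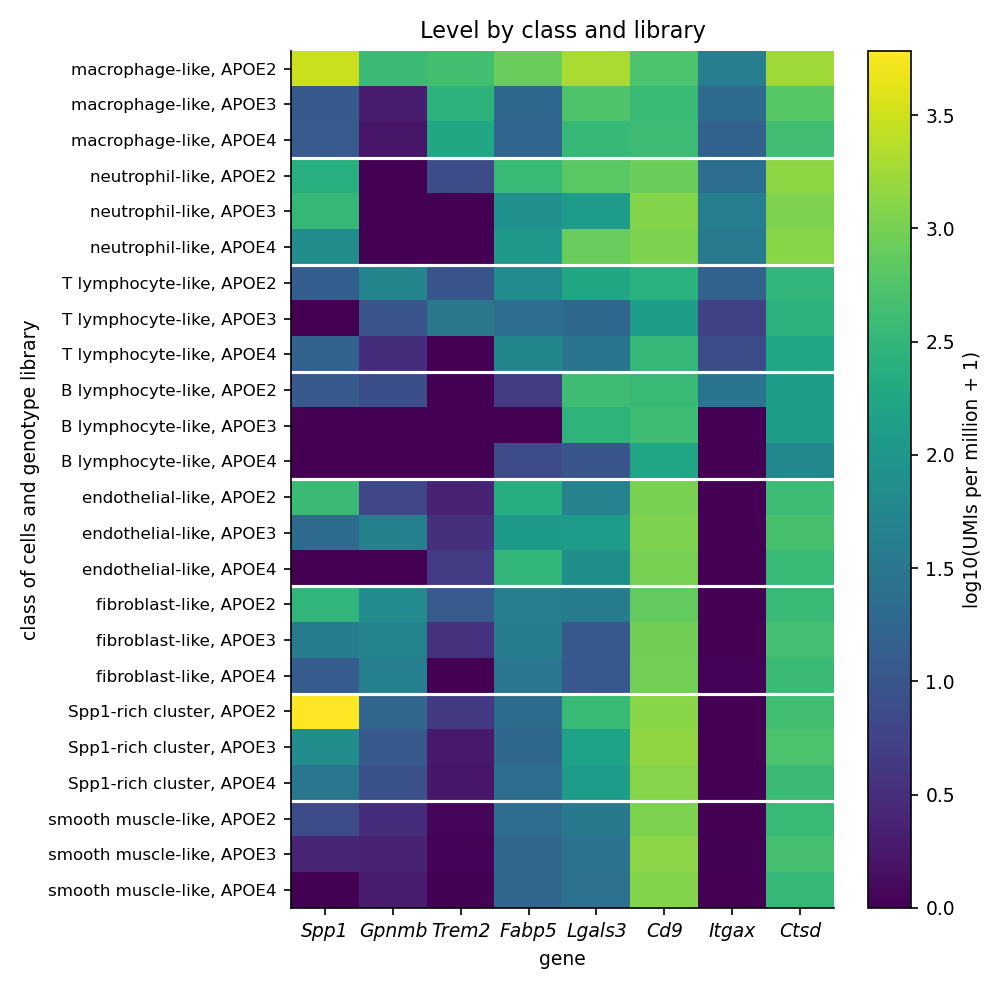
Heat map of the level of each gene, as log10 of CPM plus 1, in the named cell types and the Spp1-rich cluster of the 3 libraries. Trem2 was highest in macrophages of every library, while Cd9 lay near 1000 CPM in smooth muscle-like, fibroblast-like and endothelial-like cells.

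Summed over all cells kept, Spp1 was at 576.9, 8.42 and 3.24 CPM in APOE2, APOE3 and APOE4, Gpnmb at 20.3, 6.14 and 5.39 CPM, Trem2 at 13.4, 2.81 and 2.19 CPM and Itgax at 1.27, 0.232 and 0.248 CPM. Lgals3 was at 113.9, 37.2 and 31.0 CPM and Fabp5 at 47.2, 18.0 and 19.0 CPM. Cd9 at 1073, 1296 and 1152 CPM and Ctsd at 412.7, 476.4 and 338.3 CPM were not highest in APOE2, although both were in macrophages. Over whole libraries 6 of 8 genes were at least 2-fold higher in APOE2 than in APOE3, beside 8.49% of 16836 genes, and 0 were lower, beside 0.843%. Macrophages were 2.85% of APOE2 and 1.37% of APOE3 cells, so whole-library levels also depend on how many macrophages a library held. Trem2 had a log2 ratio of APOE2 to APOE3 of 2.25 over all cells and 0.68 in macrophages. Without its highest cell Spp1 in APOE2 was at 461.8 CPM.

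Genes that work with the set were read from lists, counting genes with 50 or more UMIs in macrophages of both libraries together. Lat2, Fabp4, Atp6v0d2, Mmp14, Anpep, Vat1 and Birc5, all higher in APOE2 than in APOE3, reached that minimum only through APOE2. Plac8, lower in APOE2 than in APOE3, reached it only through APOE3, and Fabp3, also lower, only just met it. The list counts that include them are therefore given as a description. Beside every APOE2 to APOE3 count of a macrophage list below stand 3.77% higher and 2.31% lower over all genes, with a median of -0.01. Of 11 genes of Trem2 signalling, 2 were at least 2-fold higher in APOE2 than in APOE3 macrophages and 0 lower: Lat2, an adaptor, at 95.4, 37.6 and 39.2 CPM in APOE2, APOE3 and APOE4, and Ms4a6d at 321.0, 140.8 and 137.2 CPM. Tyrobp, the adaptor of Trem2 itself, was at 1677, 1409 and 1016 CPM, a log2 ratio of 0.25 (0.17 to 0.33) for APOE2 to APOE3. The list's median was 0.17. Of 9 receptors of Spp1 and Gpnmb, 1 was 2-fold higher and 0 lower with a median of 0.14: Cd44, which binds osteopontin, was at 281.9, 136.9 and 266.7 CPM, so that APOE2 and APOE4 lay close together and above APOE3.

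Genes related to Cd9, Lgals3 and Itgax came next. Of 8 other tetraspanins, 4 genes of the galectin list (Lgals1, Lgals8, Lgals9 and the galectin-binding protein gene Lgals3bp) and 3 of the leukocyte integrin list (Itgam, Itgb2 and the integrin ligand gene Icam1), 0 were 2-fold higher and 0 lower in APOE2, with medians of -0.03, 0.19 and 0.35. Of 6 genes of fatty acid binding and lipid-sensing nuclear receptors, 1 was higher, Fabp4, at 124.5, 42.4 and 35.7 CPM, and 1 lower, Fabp3, at 7.58, 18.3 and 17.5 CPM. 

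Of 21 further lysosome genes, 4 were at least 2-fold higher in APOE2 and 0 lower, beside 3.77% and 2.31% of all genes, with a median of 0.09. They were Atp6v0d2, a subunit of the proton pump, at 82.4, 7.71 and 4.90 CPM, and the cathepsins Ctsl at 1228, 220.8 and 286.3 CPM, Ctss at 1688, 752.2 and 549.5 CPM and Ctsz at 964.6, 474.5 and 529.2 CPM. Ctsf, also a cathepsin, was in contrast at 35.0, 65.6 and 43.4 CPM. For APOE4 to APOE3 the median was -0.37 over 20 lysosome genes, with 12 intervals below 0 and 2 above. The MiT/TFE factors, which drive lysosomal genes, had 0 of 4 past 2-fold in either direction and a median of -0.23. Tfeb was at 31.8, 35.7 and 31.5 CPM.

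Other genes of lipid-associated macrophages gave the highest list median for APOE2 to APOE3, 0.84 over 14 genes, of which 4 were 2-fold higher and 0 lower, against the same 3.77% and 2.31%. These were the proteases Mmp14 (42.0, 7.71 and 16.1 CPM), Anpep (15.9, 3.86 and 4.20 CPM) and Mmp12 (357.0, 167.8 and 100.8 CPM) and Vat1 (82.6, 40.5 and 30.8 CPM). Cd36, a scavenger receptor for oxidized lipoproteins, was lowest of the list at 278.5, 318.2 and 243.6 CPM. Of 9 resident macrophage genes, 0 were higher and 2 lower in APOE2, Timd4 at 41.8, 91.6 and 52.5 CPM and Maf at 338.4, 724.2 and 510.3 CPM, with a median of -0.41. Lyve1, from the same list, was at 447.4, 334.6 and 214.2 CPM, so the list did not move as one. For 4 monocyte genes the median was 0.30, with 0 higher and 1 lower, Plac8 at 6.11, 50.1 and 21.7 CPM, and 5 proliferation genes had a median of 0.77 with 1 higher, Birc5 at 26.2, 7.71 and 34.3 CPM. In APOE4 macrophages 4 of 4 proliferation genes were 2-fold higher than in APOE3 and 0 lower, beside 3.66% and 1.41% of 6257 genes. Top2a was at 98.7 against 18.3 CPM and Mki67 at 71.4 against 20.3 CPM. Top2a, Mki67 and Birc5 reached 50 UMIs in that pair only through the APOE4 library, so nothing is read from the count.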

How the data were processed

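Whole aortas of 3 groups of mice, 1 pooled library for each genotype, were profiled by droplet single-cell RNA sequencing. The authors deposited matrices of UMI counts per gene and barcode, made with Cell Ranger 7.0.1 per the file headers against mm10 (GRCm38). The deposited counts were neither normalized nor corrected for free RNA. Because whole pools were sequenced, p-values between genotypes were not computed.

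The 8 genes and the gene lists were chosen with earlier results of these data known. Cells with at least 200 genes and under 20% mitochondrial UMIs were kept. Each library was normalized with sctransform 0.4.2, integrated in Seurat 5.3.0 (3000 features, 30 components) with the 8 genes left out of the features, and clustered by the Louvain method at resolution 0.8. A cluster was named, with the suffix -like, where at least 3 markers of a list were each seen in 10% or more of its cells at 2 times the level of all other cells, or, for smooth muscle, where 8 of 10 markers stayed at 50% or more of their level over all cells. It stayed unnamed where another list gave more of its 10 leading genes, or where depth was low and none of its markers led. Very high depth, too few markers, or a raised list beside 8 kept smooth muscle markers also left a cluster unnamed. A doublet caller marked 1, 0 and 2 cells and had not worked, so doublets were not removed, and leaving out the 5% of cells with the highest scores was an alternative.

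Levels are UMIs of a gene summed over the cells of a class per 1000000 UMIs, with exact Poisson 95% intervals. Log2 ratios between libraries have exact conditional binomial intervals and shares of cells have Clopper-Pearson (exact) ones. PCR was collapsed by UMI, and all intervals and the floor of 3 UMIs for a count of 0 cover counting error only. For counts and ranks over all genes, genes with 50 or more UMIs in both libraries together were used and 0.5 was added to each count. The 8 members were counted without that minimum or addition, and list genes with the minimum only. For the alternatives, 0.5 was added where a member was at 0 in a library. The interval code was tested on simulated counts. Genes named beside the 8 members were, by rule, the 2 highest and the lowest ratios of a list and the genes most correlated with Spp1, Trem2 or Gpnmb. Other list genes that passed 2-fold, and Tyrobp, Tfeb, Ctsf, Cd36 and Lyve1 where the rule did not give them, were named after their values were seen. Alternatives changed the cell filter, doublets, clustering features, resolution, integration, classing, mixed droplets, averaging, scaling, thinning and count minimum. Leaving out the cell with the most UMIs of each gene was added after seeing the data.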

Additional observations from a re-analysis of the deposited data

Results flagged for a closer look

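Cd9 and Ctsd went in opposite directions in macrophages and in the cells of the vessel wall. For APOE2 to APOE3, Cd9 had a log2 ratio of 0.55 in macrophages, -0.30 in smooth muscle-like cells and -0.31 in fibroblast-like cells, and Ctsd had 1.47, -0.38 and -0.35. With 1 library for each genotype the difference between cell types was not tested.

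Barcodes that the cell filter removed, which enter no comparison, held 133.7 CPM of Spp1 and 5.35 CPM of Gpnmb in the APOE2 library, from 100 and 4 UMIs. The corresponding barcodes of APOE3 and APOE4 held 0 UMIs of both genes.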

How the results depend on the processing

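No paired analysis was possible because each genotype had 1 library. Over all alternatives the values of single genes showed 8 reversals, 233 changes larger than the counting interval and 1139 smaller changes. A reversal was counted where the interval of the reported ratio excluded 0. Of 96 log2 ratios, a further 14 whose interval spanned 0 also changed sign under some alternative, 4 of them in macrophages, 4 in smooth muscle, 5 in fibroblasts and 1 over all cells. The cause of the changes was not tested.

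For macrophages, the median log2 ratio of the 8 genes for APOE2 to APOE3 was 1.67 and became 2.24 without the highest cell of each gene, 1.49 with cells classed by their own markers and 1.48 with a mean over cells. For APOE2 to APOE4 it was 2.32 and became 2.15 at resolution 0.4, 2.15 with merged libraries, 2.04 with cells classed by their own markers and 1.67 with a mean over cells. By that criterion the reversed signs were those of Lgals3 for APOE4 to APOE3 without the highest cells (0.16) and of Cd9 for APOE2 to APOE4 at resolution 0.4 (-0.21). Without macrophages of 100 or more smooth muscle-marker UMIs, the Cd9 ratio of APOE2 to APOE3 rose from 0.55 to 1.4.

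In smooth muscle, the median for APOE2 to APOE3 was 0.35 and became 0.62 at resolution 1.6, 0.12 with merged libraries and 1.01 with unnamed smooth muscle-marker clusters added. For APOE2 to APOE4 the median of 0.40 became 0.29 when centred on the median gene, 0.73 at resolution 1.6, 0.31 with merged libraries, 0.83 with cells classed by their own markers and 1.44 with the unnamed clusters added. The median for APOE4 to APOE3 went from -0.42 to -0.69 with merged libraries. By the same criterion Ctsd reversed for APOE2 to APOE4 when centred (-0.00749).

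In fibroblasts, cells classed by their own markers moved the medians from 0.44 to 1.16 for APOE2 to APOE3, from -0.26 to -0.0948 for APOE4 to APOE3 and from 0.57 to 1.22 for APOE2 to APOE4, and resolution 0.4 gave 0.36 for the last. In that classing the ratios of Gpnmb (0.20), Trem2 (0.0032) and Fabp5 (0.11) for APOE4 to APOE3 and of Cd9 (0.082) and Ctsd (0.11) for APOE2 to APOE4 reversed. Over all cells the centred median for APOE2 to APOE4 was 1.79, against 1.90 without centring.

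The median share of macrophages with a UMI of a gene in APOE2, APOE3 and APOE4 was 41.8%, 27.7% and 29.6% without thinning, and 29.4% in APOE2 and 20.6% in APOE4 at 3000 UMIs. Lowering the minimum to 20 UMIs raised the number of genes past 2-fold to 1067 (APOE2 to APOE3), 809 (APOE4 to APOE3) and 1107 (APOE2 to APOE4) in macrophages, to 999, 917 and 1591 in smooth muscle and to 799, 774 and 1079 in fibroblasts. A minimum of 100 UMIs gave 280, 150 and 322 in macrophages and 264, 196 and 334 in fibroblasts.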
